A study of Homo sapiens with 12 samples.

Results

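The mitochondrially encoded genes are the transcripts made from the mitochondrial chromosome itself. They were taken as every row of the deposited table whose gene name starts with MT-, which gave 37 of 60583 genes: 13 proteins, 2 ribosomal RNAs (rRNAs) and 22 transfer RNAs (tRNAs). All cells came from RUES2, an established human embryonic stem cell line with wild-type genotype, and were cardiomyocytes made from it, kept in a medium with B27 supplement and insulin. At day 50 of their culture they were moved for 3 days onto electrospun fibre scaffolds. The control scaffold, called PVA here, was 8% polyvinyl alcohol, which does not conduct. The other, called PEDOT here, was 9.75% PEDOT:PSS/PVA, which carries a conducting polymer blend. Each scaffold had 3 biological replicates with 2 technical libraries each, 12 libraries of ribodepleted total RNA in all. The labels do not say whether the replicates were separate cultures or what separates technical libraries, so the p-values cover no more than the spread among these samples, which may be technical.

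Mitochondrial DNA is copied into long RNAs that hold many genes at once and are then cut into single mRNAs, rRNAs and tRNAs, in large part at the tRNAs that lie between the others. The proteins are core subunits of the respiratory chain complexes I, III and IV and of the ATP synthase, the rRNAs build the mitochondrial ribosome, and the tRNAs serve its translation. Heart muscle cells are rich in mitochondria and draw most of their energy from this chain.

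The table was counted with strand, so members on opposite strands were told apart. On the + strand lie 28 members and on the - strand 9, which are MT-ND6 and 8 tRNAs. All 37 had the same coordinates and length in GENCODE 29 (GRCh38), from which the sequences below were read. They are shown because the way the genes abut, overlap and recur in the nuclear genome bears on what could be counted. The tRNAs are first, 5′ to 3′ as transcribed, in DNA letters with the anticodon in capitals: the 4 with the highest levels, for threonine, tryptophan, aspartate and glutamine, and then 2 that were hardly counted, for valine and leucine.
MT-TT, chrM:15888-15953, + strand: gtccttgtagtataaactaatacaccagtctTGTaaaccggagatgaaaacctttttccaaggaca
MT-TW, chrM:5512-5579, + strand: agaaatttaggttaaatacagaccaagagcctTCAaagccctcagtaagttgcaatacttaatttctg
MT-TD, chrM:7518-7585, + strand: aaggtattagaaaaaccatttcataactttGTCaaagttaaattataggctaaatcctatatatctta
MT-TQ, chrM:4329-4400, - strand: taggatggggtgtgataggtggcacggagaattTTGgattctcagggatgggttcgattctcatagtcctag
MT-TV, chrM:1602-1670, + strand: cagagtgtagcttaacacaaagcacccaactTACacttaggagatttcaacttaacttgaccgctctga
MT-TL1, chrM:3230-3304, + strand: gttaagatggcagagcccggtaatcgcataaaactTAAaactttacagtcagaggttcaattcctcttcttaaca

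Coding genes of the + strand overlap in places. MT-ATP8 and MT-ATP6, subunits of the ATP synthase, share 46 bases, and MT-ND4L and MT-ND4, subunits of complex I, share 7. MT-ATP6 and MT-CO3 share 1 base, at chrM:9207, which is not printed. Per the file headers no option for pairs that overlap several genes was set, so pairs that touch both genes of such an overlap were not counted. The same holds for pairs that reach from a member into an abutting member of the same strand. The start codon of the downstream gene and the stop codon of the upstream gene are in capitals.
MT-ATP8 and MT-ATP6, chrM:8527-8572, + strand: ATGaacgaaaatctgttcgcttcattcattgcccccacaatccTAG
MT-ND4L and MT-ND4, chrM:10737-10766, + strand: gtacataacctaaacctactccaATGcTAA

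Stretches of mitochondrial DNA also lie in the nuclear genome as copies that the table lists as genes of their own, and pairs that match several places were not counted either. MT-CO1, the catalytic subunit of complex IV, aligned with its copy MTCO1P12 on chromosome 1 over 1542 bases with 20 mismatches, an identity of 98.7%. MT-ND2, a complex I subunit, aligned with MTND2P28 over 1042 bases with 17 mismatches, an identity of 98.4%. The 80-base window with the most mismatches of each pair is printed with the 4 mismatched bases in capitals.
MT-CO1, chrM:6220-6299, + strand: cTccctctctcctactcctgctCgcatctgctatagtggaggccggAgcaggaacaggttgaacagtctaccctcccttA
MTCO1P12, chr1:631390-631469, + strand: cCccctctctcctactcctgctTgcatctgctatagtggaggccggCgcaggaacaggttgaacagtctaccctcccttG
MT-ND2, chrM:4879-4958, + strand: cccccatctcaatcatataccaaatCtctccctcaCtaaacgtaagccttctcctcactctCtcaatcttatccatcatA
MTND2P28, chr1:630049-630128, + strand: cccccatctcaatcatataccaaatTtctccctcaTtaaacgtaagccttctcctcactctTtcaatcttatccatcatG

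Of the 1493 windows of 50 bases in MT-CO1, 739 (49.5%) occurred unchanged in another GENCODE 29 transcript. The share was 46.7% for MT-ATP6, 43.6% for MT-ND2, 30.6% for MT-CO3, 29% for MT-CO2, 22.1% for MT-ND1, 17.9% for MT-ND6 and 14% for MT-RNR2. It was 0% for MT-ND3, MT-ND4L and MT-RNR1, and no window of any of the 22 tRNAs was shared with such a transcript. With windows of 100 bases the share fell to 27.9% for MT-CO1, 26.1% for MT-ND2, 11.9% for MT-ATP6 and 11% for MT-ND1. There it was 4.38% for MT-CO3, 2.39% for MT-CO2 and 0% for MT-ND6 and MT-RNR2. The tRNAs are too short for such windows. The share thus depends on the window length. Nuclear sequence outside annotated transcripts was not searched, so copies there, also of tRNAs, would be missed. The highest-level member, MT-CO1, was thus also the one with the largest shared part. How many pairs were lost to these copies was not tested.

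The 12 libraries held 19.1 to 30.95 M counts and the 6 sums of technical libraries 44.5 to 57.5 M. Replicate numbers are shared between the scaffolds, and same-numbered sums deviated together, so values with the replicate number as a block (paired values) stand beside the others. In cardiomyocyte markers, all 10 of which were detected, summed levels were 25806 to 37223 CPM (counts scaled to a common library size of 1 M with TMM factors). Fibroblast markers reached 819.6 to 6764 CPM, and markers of pluripotent cells 12.4 to 15.4 CPM. In bulk RNA, fewer cells of a type and less RNA per cell cannot be told apart.

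Mitochondrial genes took 4.79% ± 0.604 (SD, n = 3) of all counts on PVA against 4.67% ± 0.571 (SD, n = 3) on PEDOT. The difference between scaffolds was smaller than the spread between replicates. In single libraries the share ran from 3.98% to 5.48%. It averaged 4.06% in the sums of replicate 1, 5.01% in those of replicate 2 and 5.13% in those of replicate 3, with 2 sums each. Counts of MT-CO1 made up 69.1% to 78.9% of all mitochondrial counts in a library and those of MT-CO3, another complex IV subunit, 10.2% to 12.4%. The 7 complex I subunits together took 3.99% to 8.45%, the 2 rRNAs 0.398% to 1.51% and the 22 tRNAs 0.0818% to 0.179%.

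Levels of the 13 proteins were compared per kilobase of gene. MT-CO1 stood first at a mean of 23050 CPM per kb over the 6 sums, with a range of 18217 to 26393. MT-CO3 followed at 6786, MT-CO2, the third complex IV subunit, at 2322, MT-CYB, cytochrome b of complex III, at 1512 and the complex I subunit MT-ND4 at 986.6 CPM per kb. In these first 5 places, and between MT-ND4 and the next gene, the ranges of neighbours did not overlap.

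From MT-ND4L (409.5 CPM per kb) through MT-ND5 (308.6), MT-ND3 (272.6), MT-ATP6 (251.2), MT-ND1 (248), MT-ND2 (170) and MT-ATP8 (156.9), each gene's range overlapped that of the next, so this part of the order is not set. MT-ND6, the only protein on the - strand, was lowest at 85.7 CPM per kb and apart from MT-ATP8. MT-ND1 and MT-ND2 lie ahead of MT-CO1 on the same strand. In counts per kb they were 55.5 to 142.5 times and 73.5 to 214.8 times lower than it in the 6 sums. Both have a same-strand member within 10 bases on both sides, while MT-CO1 has none on either side. Pairs that reach into such a neighbour were not counted, nor were pairs that match several places. What part of these ratios, or of the ranking, such losses make up was not tested. The rRNAs, which ribodepletion is meant to remove, were at 199.9 (MT-RNR1) and 146.5 (MT-RNR2) CPM per kb.

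**Figure D1:**
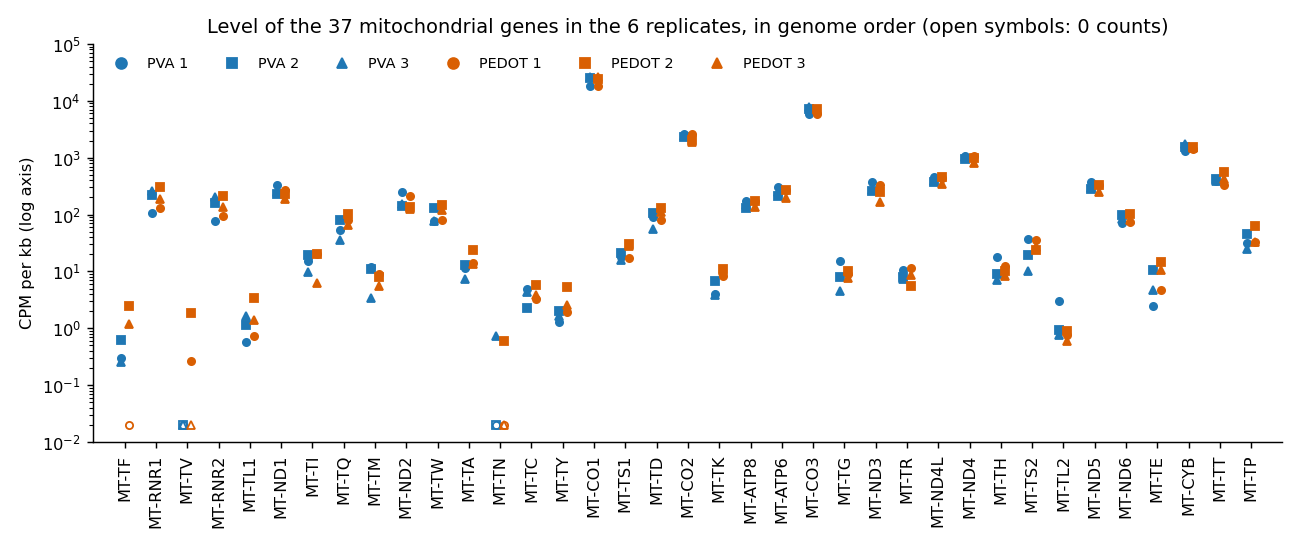
Level of each of the 37 mitochondrial genes (CPM per kb, log axis) in genome order, with 1 symbol per sum of 2 technical libraries. MT-CO1 is highest at 18217 to 26393 CPM per kb, and tRNAs such as MT-TV and MT-TN include sums with 0 counts.

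The tRNAs were counted unevenly. All 22 together held 17067 counts in 12 libraries, of which MT-TT, the threonine tRNA at the 3′ side of MT-CYB, took 47.8%. Next by mean level were MT-TW at 5.14 to 9.89 CPM, MT-TD at 3.78 to 8.87 CPM and MT-TQ at 2.52 to 7.30 CPM. The other 18 were lower, and 7 had fewer than 100 counts in all libraries together. MT-TV had no count in the 3 PVA sums, where 3 counts in 148.2 M would be 0.0202 CPM, and 7 counts in the PEDOT sums. RNA was purified on RNeasy columns, which hold RNAs as short as a tRNA poorly. Pairs from longer RNA that cover a tRNA and also reach a neighbouring gene of its strand were not counted. What part of these counts came from mature tRNA and what part from longer RNA that covers it was not tested.

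Levels of the tRNAs were also read by how closely they abut other genes. Of the 22, 7 have a same-strand member within 10 bases on both sides, 12 on 1 side and 3 on neither. Their medians were 0.564, 0.555 and 2.61 CPM. The highest tRNA, MT-TT, is open on 1 side, and so is MT-TN, which is lowest with 5 counts, so the ranges of these groups overlap. This is a description of 22 genes cut from shared RNAs, with no test. Pairs that reach from a tRNA into an abutting gene were left out before deposit, by an amount these counts do not give.

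The study's main comparison asks whether the conducting scaffold changes expression. In edgeR's quasi-likelihood test on the sums, 0 of the 31 members tested passed an adjusted p of 0.05, as did 0 of 21298 genes (0%). With the replicate block 57 genes passed (0.268%), and again 0 members. The 6 members not tested, all tRNAs below the count filter, were MT-TF, MT-TV, MT-TL1, MT-TN, MT-TY and MT-TL2. At an unadjusted p under 0.05 there was 1 member without the block, where 0.892% of all genes were, and 9 (29%) with it, where 8.32% were. DESeq2 also called 0 members. A p that misses the threshold does not show that levels were equal.

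MT-CO1 was at 28091, 38733 and 40495 CPM in PVA replicates 1, 2 and 3 and at 28524, 36717 and 40698 CPM in the PEDOT replicates. The scaffolds overlap fully, and on each the first replicate is the low one. The log2 fold change of PEDOT against PVA was -0.02 ± 0.25 (SE, adjusted p = 0.99999), or -0.02 ± 0.09 (SE, adjusted p = 0.983) paired. For MT-CO3, sums were 4526, 5696 and 6115 CPM on PVA against 4584, 5687 and 5311 CPM on PEDOT, with a log2 fold change of -0.07 ± 0.17 (SE).

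Of the 13 proteins 10 had a log2 fold change below 0 and 3 above, between -0.27 and 0.10, and the median was -0.07, against -0.006 over all genes tested. The lowest value was that of MT-ND3, a small complex I subunit, at 127.8, 88.7 and 93.0 CPM on PVA against 114.1, 85.4 and 56.9 CPM on PEDOT. PEDOT was lower in each of the 3 pairs, while the scaffolds overlapped. Its paired log2 fold change was -0.31 ± 0.10 (SE, unadjusted p = 0.00747, adjusted p = 0.348). MT-ND1 (paired -0.22, adjusted p = 0.476) and MT-ND2 (paired -0.18, adjusted p = 0.473) were the other proteins at an unadjusted p under 0.05.

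Among the 16 tRNAs tested, 12 had a log2 fold change above 0 and 4 below, with a median of 0.31 and a range of -0.20 to 1.02. These tRNAs were lower in count than the proteins, and the members share their precursor RNAs. The lysine tRNA MT-TK was at 0.282, 0.479 and 0.269 CPM on PVA against 0.587, 0.775 and 0.724 CPM on PEDOT, from 152 counts in all. It and the alanine tRNA MT-TA were the 2 members whose PEDOT sums all lay above the PVA sums, where 2.28% of genes did, and 0 members lay all below, where 2.31% did. The log2 fold change of MT-TK was 1.02 ± 0.33 (SE, unadjusted p = 0.0175, adjusted p = 0.99999).

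The glutamine tRNA MT-TQ had 3.86, 5.76 and 2.52 CPM on PVA against 5.74, 7.30 and 4.77 CPM on PEDOT. It was higher on PEDOT in each pair, though the scaffolds overlapped. Its paired log2 fold change was 0.60 ± 0.14 (SE, unadjusted p = 0.000993, adjusted p = 0.138). In all 3 pairs, 6 of the 16 tRNAs were higher on PEDOT (MT-TQ, MT-TW, MT-TA, MT-TK, MT-TE and MT-TP) and 0 lower, where 13.3% of all genes tested were higher and 15.6% lower. Of the 13 proteins 0 were higher in all 3 pairs and 3 lower.

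By strand, all 7 tested members of the - strand had a log2 fold change above 0, with a median of 0.44 and a range of 0.03 (MT-ND6) to 0.78 (MT-TE), a split looked at after the values were seen. On the + strand 10 of 24 were above 0. Among the tRNAs alone, 6 of 6 on the - strand and 6 of 10 on the + strand were above 0. Members of a strand are cut from shared RNAs and are not independent, and the difference between strands was not tested. The share of mitochondrial counts on the - strand was 0.112% ± 0.0163 (SD, n = 3) on PVA against 0.125% ± 0.0209 (SD, n = 3) on PEDOT.

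**Figure D2:**
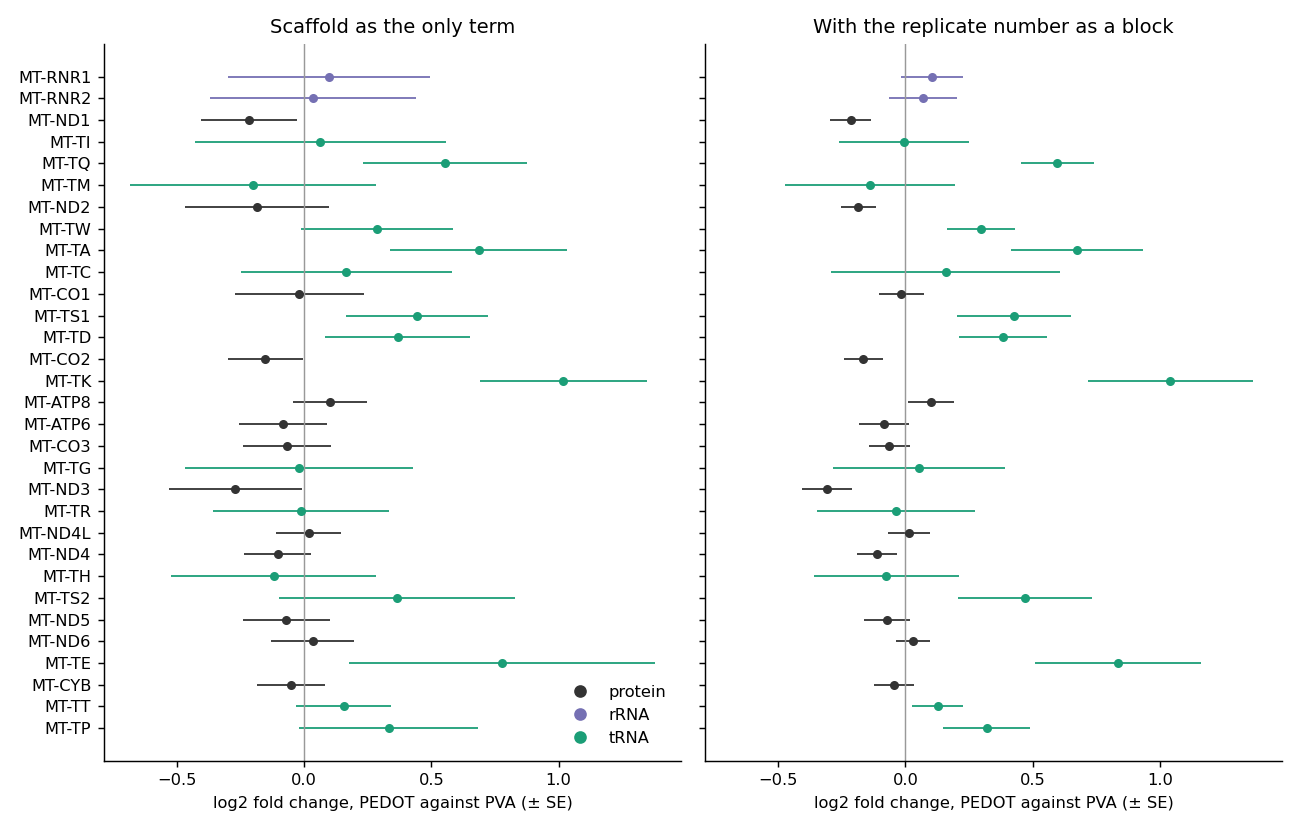
Log2 fold change of PEDOT against PVA with its standard error for the 31 members tested, without the replicate block (left) and with it (right). Proteins lie between -0.27 and 0.10 on the left and most tRNAs to the right of 0, and no member passed the adjusted threshold in either fit.

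The ratio of MT-ATP6 to MT-ATP8 per kb was 1.77, 1.64 and 1.70 on PVA against 1.54, 1.54 and 1.42 on PEDOT. These genes share the overlap printed above. The values of the scaffolds do not overlap, but the ratio was singled out among 10 after the values were seen and was not tested. Neither gene passed the threshold: the log2 fold changes were -0.08 ± 0.17 (SE) for MT-ATP6 and 0.10 ± 0.14 (SE) for MT-ATP8.

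Many members differed by replicate number. In an F test of the 3 numbers with scaffold as a term, 16 of 31 members (51.6%) passed an adjusted p of 0.05, against 31.8% of all genes. They were 7 of 13 proteins, both rRNAs and 7 of 16 tRNAs. With only the lower-numbered library of each replicate 8 of 30 members passed (26.7%), a share close to the 26.6% of all genes in that fit. With only the higher-numbered library 12 of 30 passed (40%), against 26.4% of all genes. Between replicates 2 and 1, 9 members were higher (13.3% of all genes were) and 3 lower (15.7%). Between replicates 3 and 1, 4 were higher (6.79% of genes) and 6 lower (6.42%). Between replicates 3 and 2, 0 were higher (11.9% of genes) and 5 lower (7.57%), a contrast run in the main fit only.

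The members moved in opposite directions. MT-CO1, whose sums are given above, was higher in replicates 2 and 3 than in replicate 1, by log2 fold changes of 0.41 ± 0.11 (SE, adjusted p = 0.0102) and 0.52 ± 0.11 (SE, adjusted p = 0.00544). Without PVA replicate 2 the first of these had an adjusted p of 0.0993, and without PEDOT replicate 3 the second had 0.0606. MT-CO3 rose by 0.32 in both (adjusted p = 0.0242 and 0.0431), calls that were lost in 6 and 14 of 27 other settings.

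MT-ND2 went the other way. Its sums were 258.3, 146.6 and 160.7 CPM on PVA against 225.1, 144 and 128 CPM on PEDOT, so both first replicates lay above all other sums. Replicate 2 was lower than replicate 1 by a log2 fold change of -0.73 ± 0.09 (SE, adjusted p = 1.66e-05) and replicate 3 by -0.75 ± 0.09 (SE, adjusted p = 4.68e-05). Both calls held in all 27 other settings, and in each of the 12 libraries singly replicate 1 (213.7 to 290.7 CPM) was above the rest (124.4 to 175.8 CPM). Of the variance of MT-ND2 over libraries, 84.0% lay between replicate numbers and 4.59% between scaffolds.

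MT-ND1 had 313.5, 215.7 and 235.5 CPM on PVA against 256.7, 224.3 and 177.1 CPM on PEDOT. Replicates 2 and 3 were lower than replicate 1 by log2 fold changes of -0.36 ± 0.10 (SE, adjusted p = 0.0142) and -0.47 ± 0.10 (SE, adjusted p = 0.00609). These calls were lost in 4 and 3 of 27 other settings. Both were lost without library 3 of PVA replicate 1 (-0.24, adjusted p = 0.109, and -0.35, adjusted p = 0.0511). The first was lost without PVA replicate 2 too (-0.15, adjusted p = 0.365) and the second without PEDOT replicate 3 (-0.33, adjusted p = 0.148). MT-ND3 fell by 0.47 (adjusted p = 0.0086) and 0.72 (adjusted p = 0.00114), calls lost in 5 and 1 of 27 other settings. The first was lost without the same library (-0.35, adjusted p = 0.0952), without PVA replicate 2 (-0.27, adjusted p = 0.264) and in DESeq2 (-0.46, adjusted p = 0.182). With only the lower-numbered technical libraries both were lost (-0.31, adjusted p = 0.289, and -0.48, adjusted p = 0.158). MT-ND5 fell in replicate 3 (-0.39, adjusted p = 0.0283), a call lost in 9 of 27 other settings, and in replicate 2 its value was -0.22 (adjusted p = 0.157).

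Of the 6 complex I subunits on the + strand, 5 were highest in replicate 1 on both scaffolds. The seventh subunit, MT-ND6 on the - strand, was lowest there, at 37.7, 51.8 and 44.0 CPM on PVA against 39.3, 54.5 and 42.7 CPM on PEDOT. Replicate 2 was the high one on both scaffolds. It exceeded replicate 1 by a log2 fold change of 0.46 ± 0.08 (SE, adjusted p = 0.00059), a call held in all 27 other settings. Of the 7 tested members of the - strand, 6 were highest in replicate 2 on both scaffolds, against 4 of 24 on the + strand, a split looked at after the values were seen. Among the tRNAs alone these were 5 of 6 and 4 of 10, and the difference was not tested. How many of all genes were highest in replicate 1 or in replicate 2 on both scaffolds was not counted.

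MT-CO2, MT-ATP6, MT-ATP8, MT-ND4, MT-ND4L and MT-CYB did not pass the F test. MT-CO2 was nearest, at 1789, 1596 and 1634 CPM on PVA against 1788, 1406 and 1318 CPM on PEDOT (adjusted p = 0.0506). It is a complex IV subunit with its highest sum in replicate 1, unlike MT-CO1 and MT-CO3. Per kb, MT-CO1 stood 6.97 and 7.08 times above MT-CO2 in the first replicates and 10.8 to 13.7 times above it in the others.

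**Figure D3:**
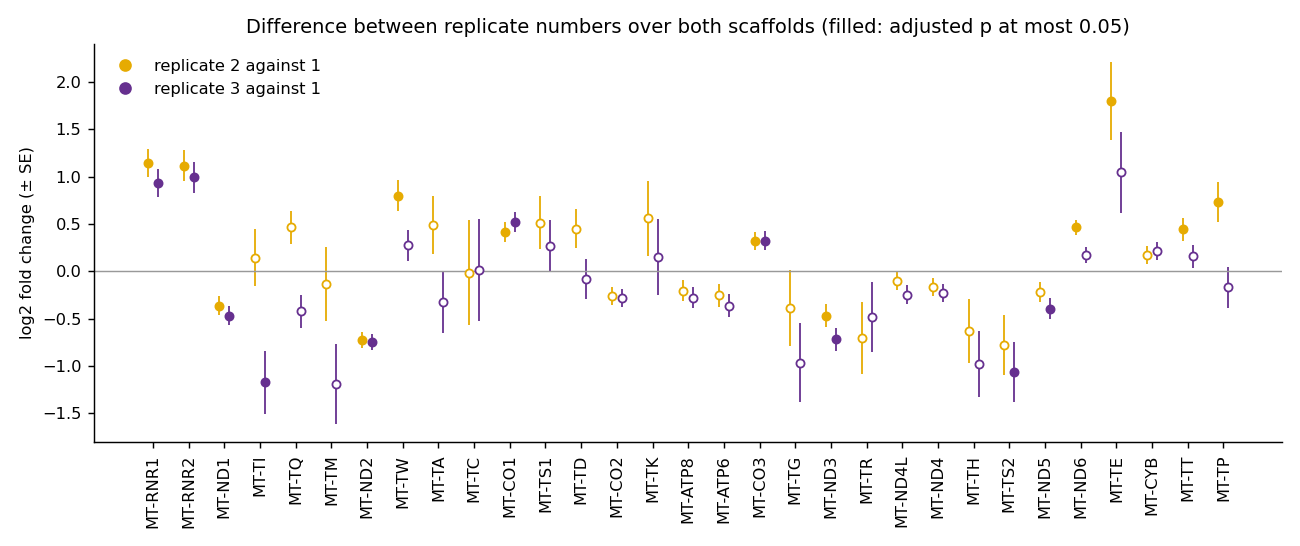
Log2 fold change of replicates 2 and 3 against replicate 1 with standard errors, over both scaffolds, for the 31 members tested in genome order. Filled points passed the adjusted threshold: MT-CO1, MT-CO3 and the rRNAs lie above 0 and MT-ND1, MT-ND2 and MT-ND3 below.

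Of the tRNAs, MT-TW rose in replicate 2 against replicate 1 by a log2 fold change of 0.80 ± 0.16 (SE, adjusted p = 0.00192), MT-TT by 0.44, MT-TP, for proline, by 0.73 and MT-TE, for glutamate, by 1.80. MT-TI, for isoleucine, and MT-TS2, for serine, fell in replicate 3 by 1.17 and 1.07 (adjusted p = 0.0309 and 0.0407). The rise of MT-TP was lost in 5 of 26 other settings. The fall of MT-TI was lost in 10 of 26 other settings and that of MT-TS2 in 18. The rise of MT-TE was lost in 1 of 26, with the lower-numbered technical libraries, and that of MT-TT in 5 of 27. The rise of MT-TW was lost without PVA replicate 2 (0.69, adjusted p = 0.064). That of MT-TT was lost, among others, without PEDOT replicate 1 (0.21, adjusted p = 0.269), PEDOT replicate 2 (0.22, adjusted p = 0.268) or library 2 of PVA replicate 2 (0.37, adjusted p = 0.0778). MT-TQ differed between replicates 3 and 2 (-0.89, adjusted p = 0.00275), a contrast not run in the other settings. Its technical libraries were at 9.75 and 4.94 CPM in PEDOT replicate 2 and at 3.38 and 1.54 CPM in PVA replicate 3. In the other replicates they differed by less.

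Of the 3 classes, the rRNAs had the largest median share of variance between technical libraries, 48.7%, against 16.8% for proteins and 23% for the tRNAs tested. MT-RNR1, the small-subunit rRNA, had 75.8 and 134.2 CPM in PVA replicate 1, 229.7 and 190.6 in PVA replicate 2 and 381.7 and 85.4 in PVA replicate 3. On PEDOT it had 154.3 and 96.4, then 290.7 and 292.4, then 187.6 and 172 CPM. The 2 libraries of PVA replicate 3 thus differed 4.47-fold, and the lower of them was below all other libraries but library 2 of PVA replicate 1. For MT-RNR2, the large-subunit rRNA, these libraries differed 3.96-fold, at 477.7 and 120.8 CPM. With 2219 counts or more behind each MT-RNR1 value of this pair, the counting error of the log2 ratio was 0.0335.

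The rRNAs kept their proportion more closely than their level: the per-kb ratio of MT-RNR2 to MT-RNR1 was 0.632 to 0.865 in the 12 libraries. Between technical libraries lay 49.5% of the variance of MT-RNR1 and 48.0% of that of MT-RNR2. The median absolute log2 ratio of technical libraries in PVA replicate 3 was 0.21 over the 13 proteins. It was 0.11 over the 11795 genes with a mean of 5 CPM or more.

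In the F test both rRNAs passed. Replicate 2 exceeded replicate 1 by log2 fold changes of 1.15 ± 0.15 (SE, adjusted p = 4.89e-05) for MT-RNR1 and 1.12 ± 0.16 (SE, adjusted p = 0.000124) for MT-RNR2, in all 27 other settings too. For replicate 3 the values were 0.93 ± 0.15 (SE, adjusted p = 0.000901) and 0.99 ± 0.16 (SE, adjusted p = 0.00104). These were lost in 2 and 3 of 27 other settings. Without library 1 of PVA replicate 3 they came to 0.17 (adjusted p = 0.528) and 0.29 (adjusted p = 0.119). On PVA the difference thus depends on which library of replicate 3 is used. Replicate 1 has no library numbered 1 on either scaffold, so technical number and replicate number are mixed here. On PEDOT, replicate 3 also lay above replicate 1, at 179.9 against 122.4 CPM for MT-RNR1 and 213.9 against 148.2 CPM for MT-RNR2. How completely each library was depleted of rRNA was not tested.

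**Figure D4:**
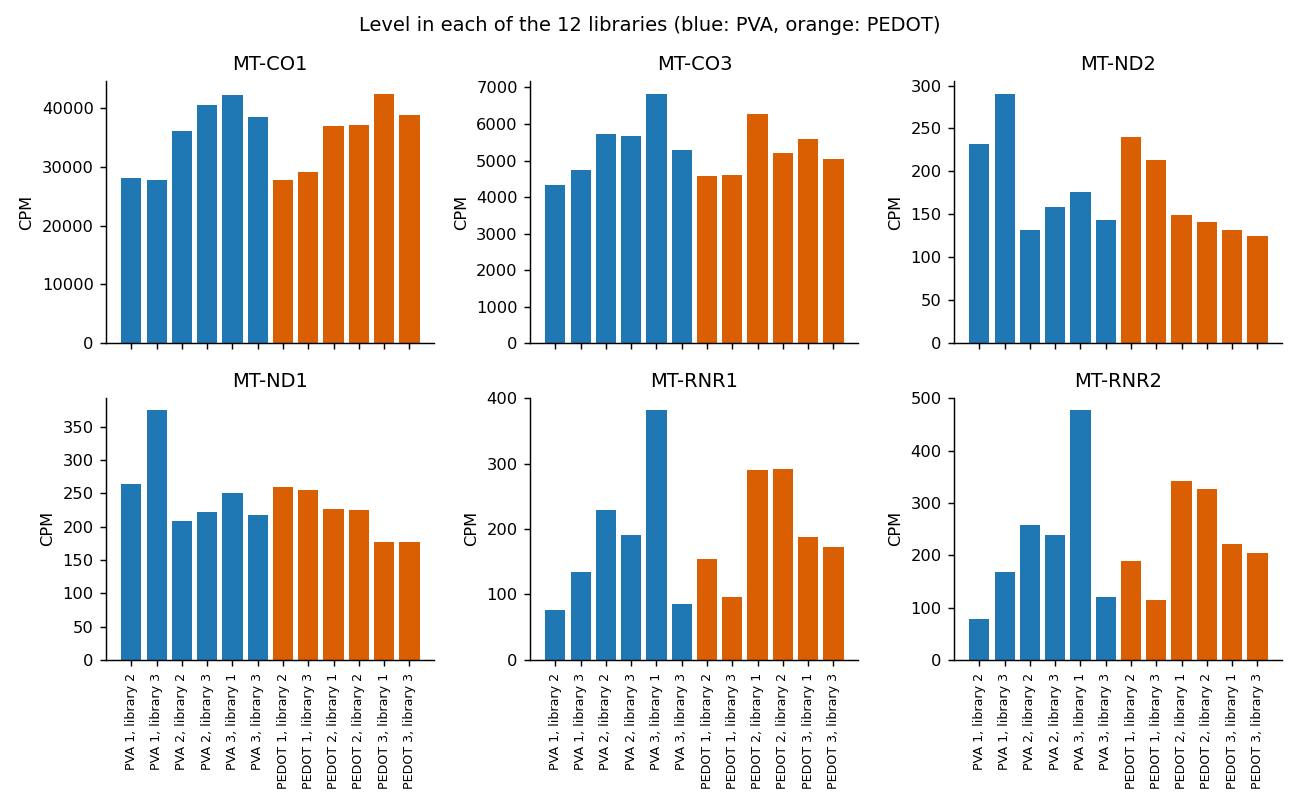
Level (CPM) of 6 members in each of the 12 libraries, with PVA in blue and PEDOT in orange. Technical libraries of a replicate lie close for MT-CO1, while MT-RNR1 differs between 381.7 and 85.4 CPM in PVA replicate 3.

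Nuclear copies were listed beside the members to show where pairs could be assigned. MTCO1P12 held 19774 counts, 0.188 per 100 counts of MT-CO1, and MTND2P28 held 13644, which is 25.9 per 100 counts of MT-ND2. MTATP6P1 held 5884, or 11.6 per 100 counts of MT-ATP6. The fourth by level, MTND4P12, held 449. MTCO1P12 was at 48, 76.4 and 72.8 CPM on PVA against 52.4, 82.8 and 69.7 CPM on PEDOT, and rose in replicate 2 against 1 by a log2 fold change of 0.66 (adjusted p = 2.52e-05), the direction of MT-CO1. MTND2P28 fell by 0.32 (adjusted p = 0.014), the direction of MT-ND2. Which of the near-identical loci these pairs came from was not tested, so values of these members and copies are uncertain to that extent.

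Cell type markers also differed by replicate number. Cardiomyocyte markers summed to 25806 and 27748 CPM in replicate 1 on PVA and PEDOT, 37223 and 36604 in replicate 2 and 32964 and 33823 in replicate 3. Of their 10 genes 8 rose in replicate 2 against 1 and 0 fell. Fibroblast markers summed to 3701 and 6764 CPM in replicate 1, 819.6 and 845.5 in replicate 2 and 3229 and 3626 in replicate 3, and 6 of their 8 genes fell in replicate 2 against 1. POSTN, a matrix protein and the 1 gene of the list that went the other way, rose by 1.55 (adjusted p = 4.48e-07). Smooth muscle and pericyte markers fell there in 8 of 8. MT-CO1 and MT-CO3 were thus low, and MT-ND1, MT-ND2 and MT-ND3 high, in the replicate with the lowest cardiomyocyte markers. The part of cell makeup in these differences was not tested.

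The nuclear genes that copy, process and translate mitochondrial RNA were read in 8 lists of 112 genes, all tested. Between scaffolds 0 passed, with or without the block, and their median log2 fold change was -0.02. By replicate number 29 (25.9%) passed, a smaller share than the 31.8% of all genes. Between replicates 2 and 1, 26 rose (23.2%, against 13.3% of all genes) and 4 fell (3.57%, against 15.7%). Between replicates 3 and 1, 3 rose (2.68%) and 0 fell, both shares below the 6.79% and 6.42% of all genes.

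Transcription factors and the polymerase of mitochondria formed a list of 9. TFB2M, a transcription initiation factor, was at 10.2 ± 1.22 CPM (SD, n = 3) on PVA against 9.29 ± 0.14 CPM (SD, n = 3) on PEDOT, and TFB1M, an rRNA methyltransferase, at 10.6 ± 0.878 and 11.5 ± 0.841 CPM (SD, n = 3). By replicate number 2 of the 9 passed: POLRMT, the mitochondrial RNA polymerase, and MTERF2, of the transcription termination factor family, both higher in replicate 2 than in replicate 1 (log2 fold changes of 0.27 and 0.67, adjusted p = 0.0412 and 5e-05). TFAM, which packs mitochondrial DNA, did not pass (adjusted p = 0.221).

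In the 14 DNA replication genes, 1 differed by replicate number, and SSBP1, which binds single-stranded mitochondrial DNA, and PRIMPOL, a primase, had the smallest p between scaffolds (0.373 and 0.452, unadjusted edgeR). Of the 7 genes that cut tRNAs out and finish their ends 2 differed by replicate number. ELAC2, which cuts the 3′ end of tRNAs, was at 67.3 ± 5.65 CPM (SD, n = 3) on PVA against 61.2 ± 1.67 CPM (SD, n = 3) on PEDOT, a log2 fold change of -0.14 ± 0.09 (SE). HSD17B10, a subunit of the enzyme that cuts the 5′ end, had -0.13 ± 0.15 (SE).

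Among 17 genes of mRNA stability and decay, 5 differed by replicate number. PNPT1, an RNA-degrading enzyme, was at 29.1 ± 0.71 CPM (SD, n = 3) on PVA against 25.9 ± 0.992 CPM (SD, n = 3) on PEDOT. Its log2 fold change was -0.17 ± 0.08 (SE), with a paired adjusted p of 0.551, and that of REXO2, an oligoribonuclease, was -0.16 ± 0.11 (SE). In the 21 tRNA modification genes 3 differed by replicate number. TRMU, which modifies the tRNA wobble base, had 0.16 ± 0.11 (SE) and NSUN4, an rRNA methyltransferase, 0.09 ± 0.09 (SE) between scaffolds.

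Of 23 aminoacyl-tRNA synthetases, which load the tRNAs, 8 differed by replicate number. SARS2 for serine and MARS2 for methionine had scaffold log2 fold changes of -0.22 ± 0.20 (SE) and -0.13 ± 0.15 (SE). Of 12 translation factors 6 did, among them MTIF3, an initiation factor, and MRPL58, a peptide-release factor of the ribosome. Their scaffold values were -0.13 ± 0.14 (SE) and -0.17 ± 0.19 (SE). Of 10 regulators of mitochondrial biogenesis 2 did, ESRRA and ESRRG, nuclear receptors of energy metabolism. PERM1 and PPARGC1B, which act with such receptors, had scaffold log2 fold changes of 0.45 ± 0.26 (SE) and 0.13 ± 0.09 (SE).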

How the data were processed

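RNA of 12 libraries was sequenced, 3 biological replicates on each of 2 scaffolds with 2 technical libraries each. Per the file headers, the authors counted read pairs by gene name with featureCounts 2.0.1, reversely stranded (-s 2), on GENCODE release 33, and deposited these raw counts. Pairs that map to several places or overlap several genes were left out, since no option for them stands in that command. Build hg38 and the tools STAR, FastQC, edgeR and DESeq2 stand in the submitters' processing notes; the aligner's version is not given in the sources used here.

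Technical libraries differed by more than counting error and were summed to 6. Their labels are numbers 2 and 3 for PVA replicates 1 and 2 and PEDOT replicate 1. They are 1 and 3 for replicate 3 on both scaffolds, and 1 and 2 for PEDOT replicate 2. Technical number is thus partly mixed with replicate number, with the scaffold in replicate 2, and with the lower- and higher-numbered libraries. Its part in these comparisons was not tested. Of 60583 genes, filterByExpr (minimum count 10, minimum total 15) kept 21298 and 31 of 37 members. After TMM scaling, glmQLFit and glmQLFTest of edgeR 4.0.16 (R 4.3.3) were used, two-sided, Benjamini-Hochberg adjusted over the genes tested, threshold 0.05. The scaffold test has the scaffold as its only term, and the replicate test is an F test of 2 coefficients with scaffold as a term. Pairwise replicate contrasts from the same fit, and leaving out single libraries, were added after the data were seen. Deviations of same-numbered sums from scaffold means correlated at 0.678, 0.703 and 0.503 over genes, so numbers were taken to pair the samples. Those of other sums correlated at -0.609 to -0.005. Deviations within a scaffold add to 0, which pushes these other values below 0, so they are no separate ground for pairing. The pairing rests on the values, since no label states it. DESeq2 1.42.0, other scalings and filters and single technical libraries were alternatives. The procedure was also run on simulated counts. These took their dispersions from the fit with the replicate block and held no replicate differences in the scaffold test. They therefore do not give the power of that test in these data.

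All proteins and rRNAs are named, tRNAs with a mean of 5 CPM or more or called by replicate number, and in each nuclear list the 2 genes of smallest p. Exceptions chosen after their values were seen are MT-TA, MT-TK, MT-TV, MT-TL1, MT-TN, POLRMT, MTERF2, TFAM, ESRRA, ESRRG and POSTN. Members and lists were chosen with earlier results of these data known. Sequences came from GENCODE 29 transcripts. The floor of MT-TV and the counting error of the MT-RNR1 ratio cover counting error only, since the reads carry no stated molecular identifiers. Values given as ± SE come from the edgeR fits of the sums, and those given as ± SD are spreads between sums.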

Additional observations from a re-analysis of the deposited data

Results flagged for a closer look

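Of 56 sets of 6 libraries (the named members and the mitochondrial shares, on each scaffold), 4 held a library set apart from the other 5 by a Dixon ratio above the 95% value, and chance gives about 1 in 20. The 6 libraries are 3 pairs of technical libraries, so they are not independent. In library 3 of PVA replicate 1, MT-ND1 was at 375.3 CPM against 207.9 to 264 in the other PVA libraries, and MT-ND3 at 155.4 CPM against 79.7 to 105.9. That library was also the shallowest, at 19.1 M counts. In library 2 of PVA replicate 2, MT-TT was at 32.1 CPM against 24.1 to 26.5. In library 1 of PEDOT replicate 2, MT-CYB was at 1856 CPM against 1618 to 1696. What sets these libraries apart was not tested.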

How the results depend on the processing

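Under all alternatives without a block, the scaffold comparison gave 0 genes and 0 members. The replicate block gave 57 genes. Leaving out replicates or pairs gave 0 to 284 genes and 0 to 2 members, the highest in the paired fit without pair 3, where MT-RNR1 and MT-RNR2 passed (adjusted p = 0.0213 and 0.0218). MT-TD passed without pair 1 (adjusted p = 0.0274). The members called by replicate number were 16 of 31 (51.6%, against 31.8% of all genes). With a mean of 5 CPM or more they were 10 of 18 (55.6%, against 40.5%). With the lower-numbered technical libraries they were 8 of 30 (26.7%, against 26.6%). Without the scaffold term they were 10 of 31 (32.3%, against 27.4%). The first alternative tests fewer members, and the cause of the others was not tested. Shares of counts in mitochondrial genes moved by less than their spread.

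Changes of sign concerned uncalled log2 fold changes only. For PEDOT against PVA, MT-CO1 had 0.000458 with a mean of 5 CPM or more. The lower-numbered technical libraries gave MT-RNR1 -0.11, MT-RNR2 -0.11, MT-CO1 0.0157 and MT-ND5 0.0583. The higher-numbered gave MT-ND4L -0.054 and MT-ND6 -0.0882, and the replicate block MT-TI -0.00642. For replicate 3 against 1, MT-TD had 0.0442 with the lower-numbered libraries, and MT-TW -0.11 and MT-TT -0.0296 with the higher-numbered.

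Leaving out replicates, pairs or libraries gave PEDOT against PVA ranges of -0.29 to 0.37 for MT-RNR1, -0.32 to 0.38 for MT-RNR2, -0.25 to 0.44 for MT-TI, -0.47 to 0.11 for MT-ND2, -0.17 to 0.12 for MT-CO1, -0.0453 to 0.21 for MT-ATP8, -0.28 to 0.0586 for MT-ATP6, -0.19 to 0.0227 for MT-CO3, -0.12 to 0.12 for MT-ND4L, -0.23 to 0.0746 for MT-ND5, -0.12 to 0.16 for MT-ND6, -0.15 to 0.0462 for MT-CYB, -0.065 to 0.32 for MT-TT and -0.0315 to 0.62 for MT-TP. For replicate 2 against 1 they were -0.15 to 0.51 for MT-TI, -0.43 to 0.0263 for MT-ATP8, -0.55 to 0.0396 for MT-ATP6, -0.31 to 0.12 for MT-ND4L and -0.46 to 0.0279 for MT-ND5. For replicate 3 against 1 they were -0.0194 to 0.55 for MT-TW, -0.56 to 0.35 for MT-TD, -0.0789 to 0.41 for MT-TT and -0.40 to 0.00905 for MT-TP.

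With 3 sums a scaffold, low counts limit the tRNAs (80 to 8152 counts each among those tested) and differences between technical libraries limit the rRNAs. Multi-mapping pairs were left out before deposit, which lowers members with nuclear copies by an amount these counts do not give.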
